A study of Mus musculus with 30 samples.

Results

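The genes described here make, regulate and move cholesterol. A list of 28 mouse genes named for these roles was looked up in RNA sequencing tables of 23109 genes, and 27 of them were found. The remaining gene, Hmgcs1, is not analysed here.

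The cells are brown preadipocytes, the precursors of heat-producing fat cells, grown from interscapular brown fat of newborn pups (C57BL/6J) with both Nr3c1 alleles floxed (GRf/f) and immortalised with SV40 T antigen. Nr3c1 encodes the glucocorticoid receptor (GR). Retroviral infection then made Cre cells, in which Cre recombinase deletes the receptor gene, and Vec cells, infected with the control vector, in which the gene stays intact. Both carry SV40 T antigen and the floxed alleles. Confluent cells were given dexamethasone (2 µg/ml), a GR ligand, IBMX (0.5 mM), which raises cAMP, indomethacin (0.125 mM), T3 (1 nM) and insulin (0.02 µM) for 4 h, as the labels describe it. The sources used here give neither the later media nor whether either population is a clone. RNA came from Cre and Vec cells at D0 (before induction), 4h, D2 and D7, with 1 library for each genotype and time and therefore no replicate of any genotype at a time.

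The libraries held 7.71 to 28.9 M reads, and Cre 4h and Vec 4h were the shallowest. Nr3c1 itself stood at 4.81, 4.04, 8.07 and 6.67 RPKM (reads scaled to transcript length and library depth) in Cre cells at D0, 4h, D2 and D7, against 24.3, 12.9, 21.3 and 32.1 RPKM in Vec cells. The Cre level was therefore 19.8% to 37.8% of the Vec level. Which part of the transcript those reads cover is not given. Of the adipocyte markers Fabp4, Adipoq, Plin1, Cebpa and Cidec, the summed level was 23.3, 24.3, 1430 and 1387 RPKM in Cre cells over the 4 times, against 23.5, 27.6, 1537 and 3919 RPKM in Vec cells. Of 5 brown fat markers, Ucp1 stayed under 1 RPKM in every library, and Cidea and Cox8b reached 1 RPKM only at D7. Prdm16 and Ebf2 made up the rest, and 1 of the 5 was at 1 RPKM or more already at D0 in each genotype. The 5 summed to 9.64, 10.7, 14.2 and 52.3 RPKM in Cre cells over the 4 times. The sums in Vec cells were 9.33, 19.1, 20.3 and 72.2 RPKM. The macrophage markers Ptprc, Adgre1, Csf1r and Itgam summed to at most 0.338 RPKM in any library, 5 endothelial markers to 0.296 to 3.18 RPKM and 5 skeletal muscle markers to 3.51 to 24.0 RPKM.

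Cells build cholesterol from acetyl-CoA. The first steps lead to mevalonate and then to isoprenoid diphosphates, which are joined into squalene, closed into the ring of lanosterol and trimmed to cholesterol. SREBP-2, the product of Srebf2, is the transcription factor that drives most of these genes. It is held in the endoplasmic reticulum by SCAP and the INSIG proteins while sterol is plentiful, and it is cleaved and sent to the nucleus when sterol runs low. Insig1 is itself an SREBP target, so its product closes a feedback loop. Surplus cholesterol is stored as esters by SOAT1 or exported by ABCA1 and ABCG1, whose genes are targets of the oxysterol-activated liver X receptors (LXR). In fat cells much of the free cholesterol lies at the surface of the lipid droplet.

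The promoters of 5 members are printed to show letters that many of them have in common. Insig1 is the member with the largest difference between Cre and Vec cells at D2, Mvk and Msmo1 are synthesis genes that fell after induction, Srebf2 encodes their activator, and Abca1 is an efflux gene that rose. Each runs from 250 bases before to 50 bases after the RefSeq transcript start (assembly GRCm38.p6), 5′ to 3′ on the gene's strand, with CCAAT boxes (CCAAT or its complement ATTGG) and GC boxes (GGGCGG or CCGCCC) in capitals.
Insig1, chr5:28071162-28071461, plus strand: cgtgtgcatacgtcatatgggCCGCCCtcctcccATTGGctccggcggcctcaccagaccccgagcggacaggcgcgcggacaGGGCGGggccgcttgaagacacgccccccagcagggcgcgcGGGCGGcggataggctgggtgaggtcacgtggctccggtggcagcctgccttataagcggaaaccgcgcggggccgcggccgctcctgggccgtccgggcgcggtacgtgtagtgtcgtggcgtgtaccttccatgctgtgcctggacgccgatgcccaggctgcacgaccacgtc
Mvk, chr5:114444019-114444318, plus strand: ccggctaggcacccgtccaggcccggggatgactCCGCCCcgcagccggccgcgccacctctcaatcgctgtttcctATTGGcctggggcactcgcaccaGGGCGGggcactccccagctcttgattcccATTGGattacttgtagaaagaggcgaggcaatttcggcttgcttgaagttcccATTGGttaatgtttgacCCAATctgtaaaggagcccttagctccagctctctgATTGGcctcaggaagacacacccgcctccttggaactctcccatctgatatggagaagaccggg
Msmo1, chr8:64733529-64733828, minus strand: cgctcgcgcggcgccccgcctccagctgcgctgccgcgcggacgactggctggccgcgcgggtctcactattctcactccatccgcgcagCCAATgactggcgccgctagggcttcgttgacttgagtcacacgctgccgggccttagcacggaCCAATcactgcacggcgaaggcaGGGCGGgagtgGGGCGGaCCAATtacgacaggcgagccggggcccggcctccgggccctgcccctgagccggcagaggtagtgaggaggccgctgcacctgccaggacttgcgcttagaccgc
Srebf2, chr15:82147019-82147318, plus strand: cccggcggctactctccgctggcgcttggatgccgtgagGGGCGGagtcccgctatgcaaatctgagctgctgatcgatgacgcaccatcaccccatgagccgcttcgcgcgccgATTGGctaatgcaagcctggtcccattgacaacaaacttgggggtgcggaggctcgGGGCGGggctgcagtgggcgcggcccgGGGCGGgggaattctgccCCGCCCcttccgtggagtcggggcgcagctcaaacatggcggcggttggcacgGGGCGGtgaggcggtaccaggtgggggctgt
Abca1, chr4:53159846-53160145, minus strand: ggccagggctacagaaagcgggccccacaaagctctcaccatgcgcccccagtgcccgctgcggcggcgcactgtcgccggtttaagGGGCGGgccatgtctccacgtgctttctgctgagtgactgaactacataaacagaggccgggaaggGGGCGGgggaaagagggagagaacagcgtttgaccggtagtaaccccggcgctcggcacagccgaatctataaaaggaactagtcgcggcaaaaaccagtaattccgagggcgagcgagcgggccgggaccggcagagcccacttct

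RefSeq windows were at hand for 21 of the 27 members, 27 windows in all. On either strand, CCAAT was found in 18 of the 27 windows (66.7%), against 37.4% of all 32851 windows of this length in the table, and GGGCGG in 22 (81.5%), against 35.7%. Mvk held 5 CCAAT boxes, Msmo1 held 3, Insig1 and Srebf2 held 1 each, and Abca1 held none. The core of a sterol regulatory element, searched as TCACNCCAC, was in 0 of the members' windows and in 1.24% of all windows. The cAMP response element TGACGTCA was likewise in 0 of them, against 1.79% of all windows. With shares this small over all windows, 0 of 27 does not show that the members lack either element. Sites that differ from the searched letters were not counted. The half-site AGGTCA of nuclear receptors was in 14.8%, against 16.3% of all windows, and the GR palindrome ACANNNTGT in 3.70%, against 6.85%. The motifs do not overlap one another in letters, and these are counts of letters in a short window.

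Most synthesis genes were lower 4 h after induction than before it in both genotypes. Many, but not most, were at their highest before induction in both. Of the members that passed the test below at 4h, only Abca1, an efflux gene, and Hsd17b7 rose. Time was tested over both genotypes with edgeR's quasi-likelihood test, in a fit of the 8 libraries with time and genotype as additive terms (p-values adjusted by Benjamini-Hochberg over 12581 genes, threshold 0.05), and all 27 members entered it. What departs from additivity serves as the error, so the adjusted p-values speak of the spread over these libraries, not between separate cultures. In bulk RNA, fewer cells of a type and less RNA per cell cannot be told apart. Between 4h and D0, 10 of the 27 members fell (37.0%), against 13.1% of all genes tested, and 2 rose (7.41%), against 12.2% of all genes. The median fitted log2 change was -0.78 over the members, with 21 below 0, and -0.00 over all genes. Between D2 and D0, 10 members fell, against 21.0% of all genes, and 3 rose, against 17.7%, with a median of -0.56 over the members and 0.02 over all genes. Between D7 and D0, 8 fell (29.6%), against 2.42% of all genes, and 2 rose, against 5.68%, with a median of -0.53 over the members and 0.01 over all genes. Over these contrasts and D7 against D2, 20 members passed at least once, against 55.8% of all genes, and 7 never did. Abca1 and Msmo1, 2 of the 27, passed at all of 4h, D2 and D7 against D0, against 1.71% of all genes.

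These counts rest on few libraries. Without Vec D0, no gene of 12497 passed by edgeR at 4h or at D7 (with 11 and 13 members at an unadjusted p under 0.05), and at D2 only Abca1 did among the members. At 4h the count of 12 members became 1 without Vec 4h, 2 without Cre D0 and 5 without Cre 4h. At D2 the count of 13 became 6 without Cre D0 and 7 without Vec D2. At D7 the count of 10 became 1 without Cre D0 or Vec D7 and 4 without Cre 4h, Vec 4h or Cre D7.

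**Figure D1:**
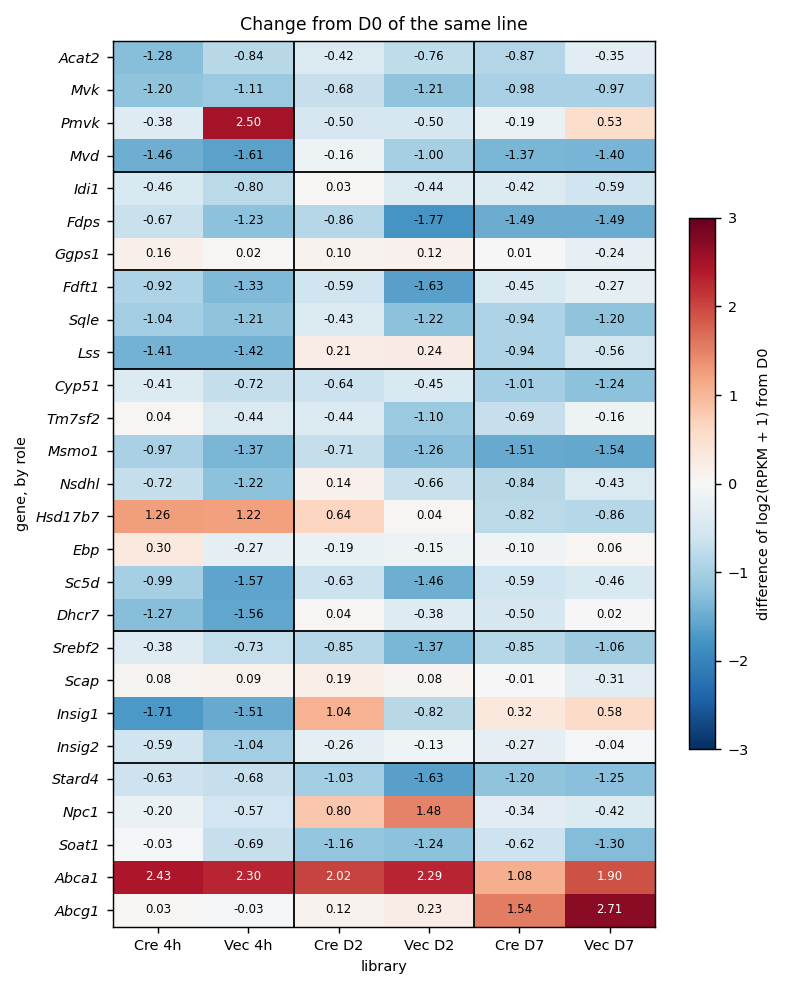
Each cell gives the difference of log2(RPKM + 1) from D0 of the same genotype, for 27 genes (rows, in order of role, with lines between roles) in the Cre and Vec libraries of 4h, D2 and D7 (columns, Cre left of Vec). Blue is below and red above D0. Most synthesis genes are blue at 4h in both genotypes, Pmvk is deep red in Vec 4h (2.50) and pale red in Vec D7 (0.53), and Abca1 is red in all 6 columns.

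The mevalonate steps come first. Acat2 makes acetoacetyl-CoA from acetyl-CoA, and Mvk, Pmvk and Mvd phosphorylate and decarboxylate mevalonate. Mvd had 31.2, 10.7, 27.7 and 11.4 RPKM in Cre cells at D0, 4h, D2 and D7, against 31.5, 9.67, 15.2 and 11.3 RPKM in Vec cells. It fell at 4h by 1.52 ± 0.26 on the log2 scale (fitted change with its standard error, edgeR adjusted p = 0.0153) and at D7 (-1.36 ± 0.25, adjusted p = 0.0369), and both 4h and both D7 libraries lay below both D0 libraries. At D2 the Cre level was back near D0 and the Vec level was not. Mvk, at 9.44 to 23.9 RPKM over the 8 libraries, fell at 4h (log2 change -1.12 ± 0.22, adjusted p = 0.0200) and at D2 (-1.01 ± 0.21, adjusted p = 0.0159). Acat2, with its lowest level in Cre 4h (9.88 RPKM), fell at 4h (adjusted p = 0.0438).

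Pmvk stood apart from the other members in 1 library. It had 20.3, 15.4, 14.0 and 17.7 RPKM in Cre cells at D0, 4h, D2 and D7, against 19.7, 116, 13.6 and 28.8 RPKM in Vec cells. The Vec 4h library, with 1696 reads, was far above all 7 others, and the Cre 4h library, with 141 reads, was among the low ones. In the additive model this left a wide error (log2 change at 4h 1.53 ± 0.76, adjusted p = 0.182), so Pmvk did not pass. Without Cre 4h it did. A further transcript record of the gene gave 14.7 RPKM in Cre 4h, against 103 RPKM in Vec 4h. With 131 and 1460 reads there, it may largely count the same reads and is no separate check. No annotated gene overlaps Pmvk.

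The isoprenoid steps are carried out by Idi1, an isomerase, Fdps, which makes farnesyl diphosphate, and Ggps1, which makes geranylgeranyl diphosphate for protein prenylation. Fdps had 31.4, 19.4, 16.9 and 10.6 RPKM in Cre cells over the 4 times, against 32.5, 13.2, 8.82 and 10.9 RPKM in Vec cells. Both libraries of each later time lay below both D0 libraries, and Fdps fell at D2 (-1.39 ± 0.28, adjusted p = 0.0138) and at D7 (-1.48 ± 0.28, adjusted p = 0.0374). Idi1 was close to the detection filter, at 0.597 to 1.78 RPKM, and fell at 4h (-1.14 ± 0.31, adjusted p = 0.0445). It reached 1 RPKM, and so entered the test, only through its D0 and D2 libraries. Its fall at 4h, counted among those above, therefore follows in part from the filter. Ggps1 stayed between 8.04 and 10.6 RPKM and passed in no contrast.

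Squalene is made by Fdft1, oxidised by Sqle and closed into lanosterol by Lss. Fdft1 had 25.0, 12.7, 16.2 and 18.0 RPKM in Cre cells, against 27.2, 10.2, 8.15 and 22.4 RPKM in Vec cells, and fell at D2 (-1.15 ± 0.33, adjusted p = 0.0374). The D0 libraries were the highest, and Vec D2 was the lowest. Fdft1 overlaps Ctsb, which lay between 87.9 and 245 RPKM, and whether reads were counted by strand is not given. Lss had 27.2, 9.62, 31.8 and 13.8 RPKM in Cre cells, against 27.2, 9.49, 32.2 and 18.1 RPKM in Vec cells. It fell at 4h (-1.41 ± 0.15, adjusted p = 0.00684), was above both D0 libraries again in both D2 libraries without passing, and fell at D7 against D0 (-0.68 ± 0.15, adjusted p = 0.0479) and against D2 (-0.89 ± 0.15, adjusted p = 0.0127). Sqle, which controls the entry of squalene into the sterol part, ran from 30.0 RPKM in Vec D2 to 71.4 RPKM in Vec D0 and fell at 4h (-1.05 ± 0.23, adjusted p = 0.0249) and at D2 (-0.85 ± 0.22, adjusted p = 0.0313).

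The sterol steps turn lanosterol into cholesterol. Msmo1, an oxygenase that takes part in the removal of methyl groups, had the highest level of this group at D0. It had 77.3, 38.9, 46.8 and 26.6 RPKM in Cre cells over the 4 times, against 80.5, 30.6, 33.1 and 26.98 RPKM in Vec cells. Every later library lay below both D0 libraries, and the fall passed at 4h (-1.10 ± 0.18, adjusted p = 0.0137), D2 (-1.02 ± 0.18, adjusted p = 0.00958) and D7 (-1.46 ± 0.18, adjusted p = 0.0150). Sc5d, a desaturase, had 40.5, 20.0, 25.7 and 26.5 RPKM in Cre cells, against 43.7, 14.0, 15.2 and 31.5 RPKM in Vec cells. All later libraries were below D0, and Sc5d fell at 4h (-1.24 ± 0.27, adjusted p = 0.0269) and at D2 (-1.09 ± 0.27, adjusted p = 0.0259).

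Dhcr7, the reductase of the last step of one branch, had 12.6, 4.65, 13.0 and 8.67 RPKM in Cre cells, against 12.8, 3.68, 9.60 and 13.0 RPKM in Vec cells. It fell at 4h (-1.52 ± 0.28, adjusted p = 0.0172), and the D2 and D7 libraries overlapped those of D0. Hsd17b7, a reductase of the same methyl-removing complex as Msmo1 and Nsdhl, ran the other way. It had 12.7, 31.9, 20.4 and 6.79 RPKM in Cre cells, against 12.1, 29.6, 12.5 and 6.21 RPKM in Vec cells. Both 4h libraries were above all others, the rise at 4h passed (1.41 ± 0.21, adjusted p = 0.0112), and so did the fall between D2 and D7 (-1.20 ± 0.21, adjusted p = 0.0143). Cyp51, the lanosterol demethylase, ranged over 22.9 to 55.2 RPKM and fell at D2 (-0.58 ± 0.13, adjusted p = 0.0217) and D7 (-1.05 ± 0.14, adjusted p = 0.0166). Nsdhl (10.5 to 28.2 RPKM), Tm7sf2 (2.25 to 6.14 RPKM) and the isomerase gene Ebp (15.2 to 21.6 RPKM) passed in no time contrast. Tm7sf2 overlaps Vps51, at 4.93 to 13.7 RPKM.

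**Figure D2:**
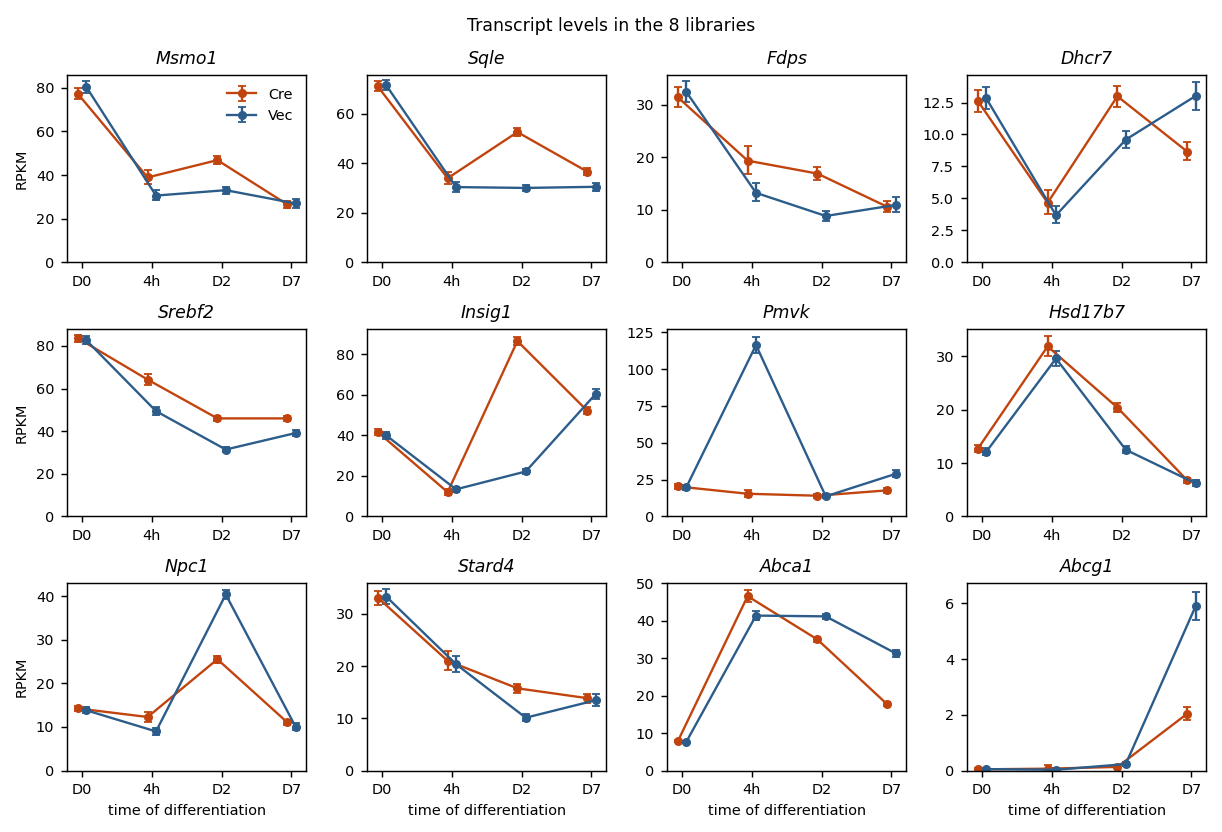
RPKM (vertical axis, from 0) of 12 members at D0, 4h, D2 and D7 in Cre (orange) and Vec (blue) cells, 1 library per point, with exact Poisson 95% intervals of the reads, which cover counting error only. Msmo1, Sqle and Fdps start high and are lower at every later time, Insig1 is at 86.4 RPKM in Cre D2 against 22.1 RPKM in Vec D2, and Abcg1 is near 0 until D7.

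Among the control genes, Srebf2 itself fell. It had 83.7, 64.2, 46.0 and 46.0 RPKM in Cre cells, against 82.7, 49.4, 31.4 and 39.1 RPKM in Vec cells, with each later library below both D0 libraries. The fall passed at D2 (-1.15 ± 0.16, adjusted p = 0.00567) and at D7 (-0.88 ± 0.16, adjusted p = 0.0367). Insig1, the feedback inhibitor, had 41.5, 12.0, 86.4 and 52.1 RPKM in Cre cells, against 39.9, 13.3, 22.1 and 60.2 RPKM in Vec cells. Both 4h libraries were below both D0 libraries, by 3.47-fold in Cre cells (95% interval on the reads 3.04 to 3.97) and 2.99-fold in Vec cells (2.70 to 3.32). At D2 the genotypes parted, with Cre above its D0 level (2.08-fold, 1.99 to 2.18) and Vec below its own (1.80-fold lower, 1.69 to 1.92). Insig1 passed in none of the contrasts of the additive model (adjusted p = 0.0943 at 4h). At D2 it passed as a fall without Cre D2 and as a rise without Vec D2. Insig2, the constitutive relative, lay at 7.44 to 16.6 RPKM and fell at 4h (-0.78 ± 0.17, adjusted p = 0.0271), while Scap stayed at 23.0 to 32.8 RPKM and passed in no contrast.

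The transport genes split by direction. Abca1, which loads cholesterol onto apolipoprotein acceptors, had 7.85, 46.6, 35.0 and 17.7 RPKM in Cre cells, against 7.64, 41.4, 41.2 and 31.3 RPKM in Vec cells. All 6 later libraries were above both D0 libraries, and the rise passed at 4h (2.60 ± 0.26, adjusted p = 0.00684), D2 (2.26 ± 0.25, adjusted p = 0.00349) and D7 (1.73 ± 0.25, adjusted p = 0.0205). Its D2 call was kept under every alternative and every left-out library. Abcg1, which exports cholesterol to high-density lipoprotein, had 0.0428, 0.0669, 0.130 and 2.04 RPKM in Cre cells, against 0.0512, 0.0280, 0.232 and 5.89 RPKM in Vec cells. Until D7 that was 2 to 39 reads per library, and at D7 it was 293 reads in Cre and 520 in Vec. It entered the test only through its D7 libraries, so its rise at D7 (6.36 ± 0.47 against D0, adjusted p = 0.00536) had to be large. Without it the members that rose number 2 at D2 (Abca1 and Npc1) and 1 at D7 (Abca1).

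Npc1, which lets cholesterol out of lysosomes, peaked at D2. It had 14.2, 12.3, 25.5 and 11.1 RPKM in Cre cells, against 13.8, 8.97, 40.4 and 10.1 RPKM in Vec cells. Both D2 libraries were above all others, with a rise against D0 (1.20 ± 0.23, adjusted p = 0.0127) and a fall by D7 against D2 (-1.50 ± 0.23, adjusted p = 0.0111). Its neighbour Rmc1, which overlaps it, lay at 6.52 to 13.8 RPKM. Stard4, a carrier of sterol between membranes and a known SREBP-2 target, had 33.1, 21.0, 15.7 and 13.9 RPKM in Cre cells, against 33.3, 20.4, 10.1 and 13.4 RPKM in Vec cells. All later libraries were below D0, and the fall passed at D2 (-1.40 ± 0.21, adjusted p = 0.00616) and D7 (-1.18 ± 0.21, adjusted p = 0.0320). Soat1, which esterifies cholesterol for storage, had 24.3, 23.8, 10.3 and 15.4 RPKM in Cre cells, against 25.0, 15.1, 10.0 and 9.52 RPKM in Vec cells. It fell at D2 (-1.31 ± 0.20, adjusted p = 0.00691), where both libraries were far below D0, and at D7 (-0.92 ± 0.20, adjusted p = 0.0497).

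Between D7 and D2 the members changed little as a group in the fit, which averages Cre and Vec. The genotypes moved differently. The 18 synthesis genes summed to 391 RPKM at D2 and 271 RPKM at D7 in Cre cells, against 292 and 309 RPKM in Vec cells. That difference was not tested. Abcg1, which entered the test only through its D7 libraries, was the 1 member that rose, and 0 rose without it, against 15.4% of all genes. Lss, Hsd17b7 and Npc1 fell (11.1% of the members), against 8.93% of all genes. The median was 0.06 over the members and 0.04 over all genes. Without Cre D7, in which case Abcg1 was not tested, 2 members (Lss and Npc1) passed, and without Vec D7 the 2 were Lss and Abca1. DESeq2 called 7.

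**Figure D3:**
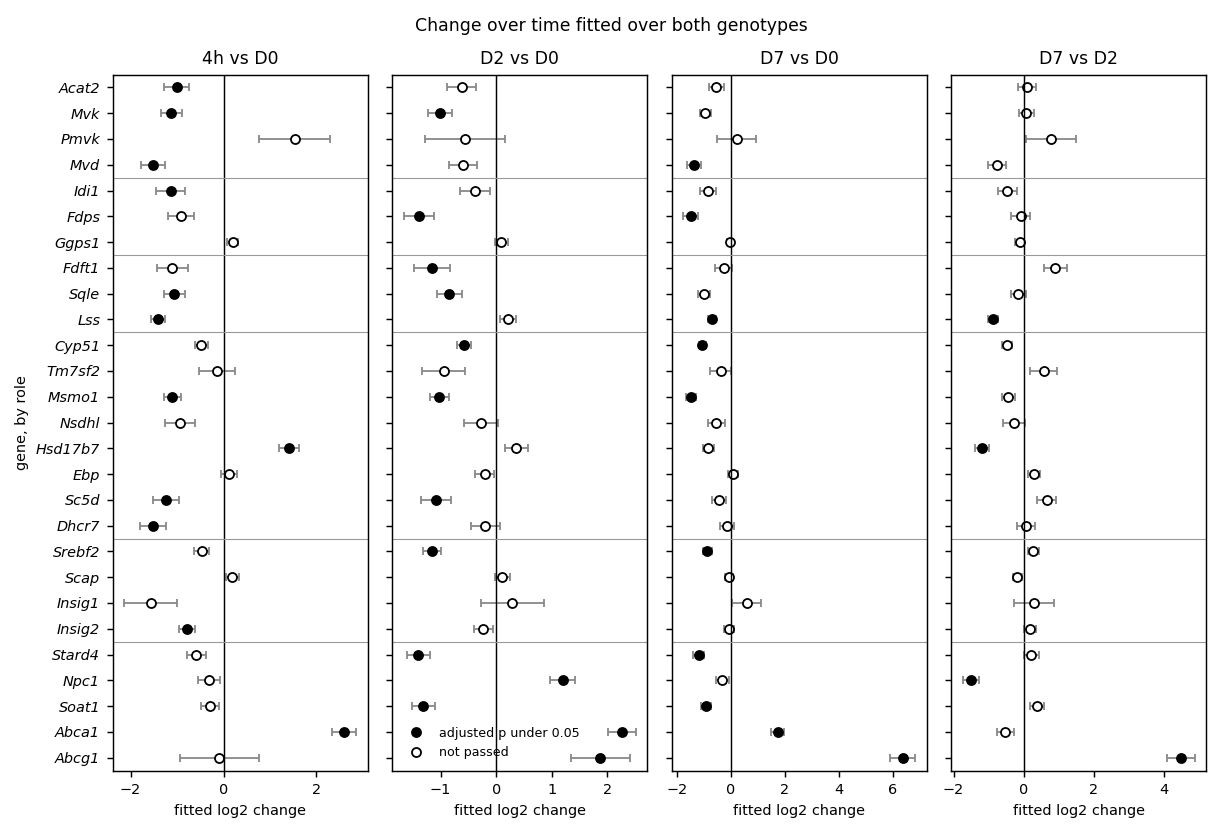
Fitted log2 change of 27 members (rows, by role) between times, over both genotypes, in 4 panels with their own horizontal scales. Bars are standard errors of the edgeR fit, filled points have an adjusted p under 0.05 and open points do not. At 4h the filled points are left of 0 except Abca1 and Hsd17b7.

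Whether receptor loss moved these genes was looked at in 2 ways. Over all times together, no member passed between Cre and Vec cells, and 0.00% of all 12581 genes did. The fit did not call Nr3c1 itself, the deleted gene (fitted log2 difference -1.96, edgeR adjusted p = 0.341), so a count of 0 here does not show that the members were unmoved. DESeq2 called 19 genes, Nr3c1 among them (adjusted p = 9.0e-17) and no member. At an unadjusted p under 0.05 there was 1 member, Abcg1 (-1.04 ± 0.34, adjusted p = 0.410), among 1501 genes. Within a time there is 1 library per genotype and no test, so genes were counted by size on the log2(RPKM + 1) scale, among genes at 1 RPKM or more in either library. Folds below carry 95% exact binomial intervals on the reads, which cover counting error only.

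At D0 the genotypes lay close together. No member of 26 differed 2-fold (0.433% of all genes did) or 1.5-fold (0.983% of all genes did), and the differences lay between -0.22 and 0.06. The summed level of the 18 synthesis genes was 510 RPKM in Cre cells and 527 RPKM in Vec cells. The closer 1.5-fold rule was chosen after the values had been seen.

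At 4h, 1 of 25 members differed 2-fold, against 4.24% of all genes. That was Pmvk, 7.56-fold lower in Cre (6.36 to 9.04). Soat1 alone was 1.5-fold higher (1.58-fold, 1.44 to 1.74), against 6.71% of all genes, and Pmvk alone 1.5-fold lower, against 5.46%. After median-of-ratios scaling 0 members were 1.5-fold higher and 2 lower. The median difference was 0.24 over the members and 0.11 over all genes, and 0.12 and 0.00 after that scaling, which moved all values of Vec 4h by 0.12. The 18 synthesis genes summed to 310 RPKM in Cre cells and 367 RPKM in Vec cells, and without Pmvk to 295 RPKM in Cre cells and 251 RPKM in Vec cells, so that 1 gene turned the direction of the sum.

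At D2 more members were higher in Cre cells. Insig1 was the 1 of 26 that differed 2-fold (4.09% of all genes did), at 3.90-fold higher in Cre (3.70 to 4.12). At 1.5-fold, 10 members were higher, against 7.76% of all genes: Insig1, Fdft1, Fdps, Mvd, Nsdhl, Sqle, Sc5d, Hsd17b7, Tm7sf2 and Stard4. Fdft1 was 1.99-fold higher (1.81 to 2.19), Fdps 1.92-fold (1.68 to 2.18) and Mvd 1.82-fold (1.67 to 1.99). Only Npc1 was 1.5-fold lower (1.58-fold, 1.52 to 1.65), against 5.35% of all genes. The median difference was 0.45 over the members and -0.04 over all genes.

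The genes higher in Cre at D2 were spread over the pathway. Of the 18 synthesis genes, 13 had an interval wholly above 1 (27.6% of all genes did), 2 (Cyp51 and Ebp) wholly below (36.3% of all genes) and 3 (Pmvk, Ggps1 and Lss) across it. The sum was 391 RPKM in Cre cells and 292 RPKM in Vec cells. Srebf2 was 1.47-fold higher (1.41 to 1.53). The efflux genes were not higher, with Abca1 at 35.0 RPKM in Cre and 41.2 RPKM in Vec, and Abcg1 at 20 and 39 reads. In 8 of the 10 genes that were 1.5-fold higher, the Cre level lay nearer to its D0 than the Vec level did (all but Insig1 and Hsd17b7). Fdps, for example, was 1.86-fold under D0 in Cre (1.69 to 2.05) and 3.68-fold under it in Vec (3.27 to 4.15). These 10 genes were picked for a higher Cre level at D2, and the genotypes lay close together at D0. Where Vec lay below D0, a nearer Cre level therefore largely follows from the rule. The share over all genes that pass the same rule is not given here. Whether the responses differ between the genotypes beyond the spread between cultures was not tested, as there is no replicate.

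Markers of the state of the cells also differed at D2. The preadipocyte markers Pdgfra, Pdgfrb, Col1a1, Col3a1, Thy1 and Dlk1 summed to 1410 RPKM in Cre cells and 664 RPKM in Vec cells, with all 6 detected. The 5 adipocyte markers summed to 1430 RPKM in Cre and 1537 RPKM in Vec. Their part in the differences of the cholesterol genes was not tested.

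**Figure D4:**
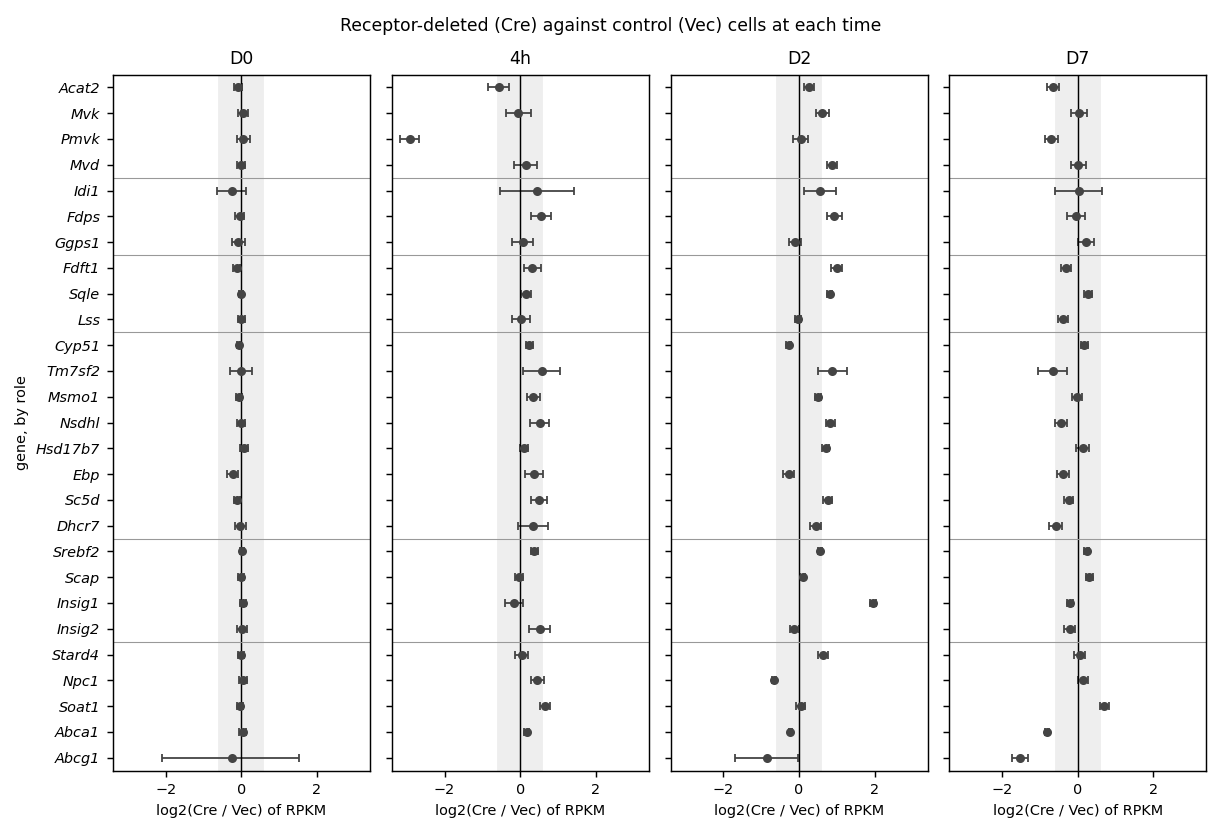
Ratio of the RPKM of Cre to Vec cells (horizontal axis, log2 scale) for the members (rows, by role) at D0, 4h, D2 and D7, 1 library per genotype and time. Bars are 95% exact binomial intervals on the reads, and the grey band marks ratios within 1.5-fold. At D0 the intervals of all but 4 members, each a synthesis gene lower in Cre, span a ratio of 1 and no point leaves the band, Pmvk is far left at 4h, Insig1 is far right at D2, and Abcg1 and Abca1 are left at D7.

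At D7 the synthesis genes no longer leaned to Cre. Abcg1 was the 1 of 26 members that differed 2-fold (4.50% of all genes did), at 2.89-fold lower in Cre (2.50 to 3.35). At 1.5-fold, Abcg1, Abca1, Pmvk and Acat2 were lower, against 9.00% of all genes, and Soat1 was higher (1.62-fold, 1.49 to 1.77), against 7.24%. Abca1 was 1.77-fold lower in Cre (1.70 to 1.84). The median was -0.12 over the members and 0.03 over all genes. Of the 18 synthesis genes, 2 had an interval above 1 (31.8% of all genes did), 9 below (26.2% of all genes) and 7 across it, and they summed to 271 RPKM in Cre cells and 309 RPKM in Vec cells. Beside this the adipocyte markers summed to 1387 RPKM in Cre and 3919 RPKM in Vec, and the preadipocyte markers to 2567 RPKM in Cre and 1377 RPKM in Vec. The part of that shift in these differences was not tested.

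Other genes around the pathway were followed in 5 lists, whose counts are to be read against the shares of all genes: 12.2% rose and 13.1% fell at 4h, 17.7% rose and 21.0% fell at D2, 5.68% rose and 2.42% fell at D7, and 15.4% rose and 8.93% fell between D2 and D7. Of 10 genes that process SREBP or sense sterol with it, 0 passed at 4h by edgeR (2 at an unadjusted p under 0.05). At D2, Erlin1 rose (0.63 ± 0.15), and between D2 and D7, 2 fell (Erlin1, -0.64 ± 0.15, and the protease gene Mbtps2, -0.63 ± 0.11). Srebf1, which encodes the relative of SREBP-2 that drives fatty acid synthesis, rose at D7 (2.09 ± 0.45, adjusted p = 0.0489). It had 26.97, 14.1, 50.2 and 58.9 RPKM in Cre cells, against 23.6, 9.49, 74.1 and 153 RPKM in Vec cells, so Vec D7 was the highest. Srebf2 and Srebf1 ran in opposite directions by D7.

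Of 10 genes of oxysterols and LXR, 8 were tested, and Nr1h3, which encodes LXRα, was the only one to rise against D0. It rose at D2 (2.67 ± 0.43, adjusted p = 0.00786) and at D7 (4.22 ± 0.45, adjusted p = 0.00971), but it reached 1 RPKM, and so entered the test, only through the D2 and D7 libraries where it is high. Nr1h3 had 0.898, 0.216, 3.54 and 8.71 RPKM in Cre cells, against 0.590, 0.272, 7.02 and 19.9 RPKM in Vec cells. The D7 libraries were the highest, and at D2 and D7 Vec was above Cre. Cyp7b1, an oxysterol hydroxylase gene, rose between D2 and D7 (1.66 ± 0.46, adjusted p = 0.0481). Abca1 was already up at 4h, when Nr1h3 was at its lowest in both genotypes, with 3 reads in Cre and 6 in Vec. Nr1h2, of the same list, had 12.7 RPKM in Cre 4h and 10.2 RPKM in Vec 4h. The part of LXR in the rise of Abca1 was not tested.

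Of 14 tested genes that handle sterol inside the cell or take up lipoproteins, 2 rose and 4 fell at 4h, 3 rose and 2 fell at D2, and 2 rose and 1 fell at D7, each against D0. Between D2 and D7, 2 rose and 3 fell. Lrp8, a lipoprotein receptor gene, fell at 4h, D2 and D7 against D0 (-2.78 ± 0.27 at D2, adjusted p = 0.00311). Gramd1b, whose product carries cholesterol to the endoplasmic reticulum, fell at 4h (-1.53 ± 0.24) and rose at D2 (1.76 ± 0.21). Nceh1, a hydrolase of cholesteryl esters, fell at D2 (-2.30 ± 0.40, adjusted p = 0.00933), and the sterol carrier gene Stard5 rose at all 3 times (1.68 ± 0.17 at D2).

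The non-sterol branch, which uses the same isoprenoids for ubiquinone, dolichol and protein prenylation, was covered by 11 genes. Of these, 4 rose and 1 fell at 4h, and 5 rose and 0 fell at D2, with medians of 0.35 and 0.39. Rabggta, a subunit of a Rab prenyltransferase, was the one that fell at 4h (-1.78 ± 0.24, adjusted p = 0.00949). Pdss1, which builds the ubiquinone tail, rose at D2 (1.37 ± 0.24, adjusted p = 0.00972), as did the other subunit gene Rabggtb (0.89 ± 0.13) and the dolichol gene Nus1 (0.70 ± 0.13). At D7 1 gene was up against D0, and 4 of the 11, these 3 among them, fell between D2 and D7. Of 6 genes that supply acetyl-CoA, only Pdha1 rose, at D2 (0.95 ± 0.24, adjusted p = 0.0275).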

How the data were processed

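RNA sequencing tables of 8 libraries were used; the 22 ChIP samples of the series are not analysed here. The authors deposited, per the file headers, a read count and an RPKM value for each RefSeq transcript accession. The submitters' processing notes name CASAVA 1.8.2, SICER and mm9, with no role given. No aligner, counter or use of strand is given in the sources used here. Of 29082 accessions, 28432 (97.8%) matched a symbol in a RefSeq table of GRCm38.p6, used for names and promoters. The accession with the most reads stood for each gene. For Mvd that was a non-coding record sharing nearly all its reads with the coding one.

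Counts were fitted with edgeR 4.0.16 (R 4.3.3, TMM scaling) to the 12581 genes that reached 1 RPKM in 2 or more libraries, after a check on simulated data. The fit has 3 residual degrees of freedom, and a standard error is the fitted change over the square root of its F statistic. With 1 library per genotype and time, Cre and Vec were compared by size at each time, on log2(RPKM + 1). Depth was 7.71 to 28.9 M reads. Members and lists were chosen with earlier results of these data known. Values in all 8 libraries are given for the 16 members with the largest fitted change of the 22 that passed or differed 2-fold, and up to 4 genes of each list are named, largest change first. One result of a list is not reported here. Alternatives were limma 3.58.1, DESeq2 1.42.0, other scalings, filters, pseudocounts, summed accessions and left-out libraries. A ratio was formed where a library had more than 3 reads.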

Additional observations from a re-analysis of the deposited data

Results flagged for a closer look

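Cre and Vec moved in opposite directions from D0 in 12 of 81 pairs of a member and a time, and in 2 of these the responses lay at least 1 apart on the log2(RPKM + 1) scale. With 1 library each, the difference between the responses was not tested. For Pmvk at 4h, the Cre response minus the Vec response was -2.89 on the log2(RPKM + 1) scale, with 15.4 RPKM in Cre 4h and 116 RPKM in Vec 4h. For Insig1 at D2, the Cre response minus the Vec response was 1.86, with 86.4 RPKM in Cre D2 and 22.1 RPKM in Vec D2. The other pairs with both counting intervals off a ratio of 1 lay closer, at -0.72 for Pmvk at D7, 0.80 for Nsdhl at D2 and 0.56 for Ebp at 4h.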

How the results depend on the processing

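No direction called in the reported fit of the 8 libraries reversed under any alternative. Insig1 at D2 was not called in that fit, so its opposite directions without Cre D2 and without Vec D2 are not covered by this. Leaving out 1 library at a time, 0 to 17 members passed at 4h against D0, 1 to 13 at D2 against D0, 0 to 11 at D7 against D0 and 2 to 6 at D7 against D2. Without Vec D0 the counts against D0 were lowest at each time. With all 8 libraries kept, the counts at 4h, D2 and D7 against D0 stayed within 1.5 times of those reported, and DESeq2 called 7 members in place of 4 at D7 against D2. The comparison of Cre and Vec by size was least stable at D7, where 4 of 5 checked values moved, against 1 of 5 at 4h and 1 of 5 at D2. With a pseudocount of 5, 0 members differed 2-fold at D7, and 1 differed 1.5-fold at 4h, 7 at D2 and 2 at D7. Calls kept under every alternative with all 8 libraries were 11 of 12 at 4h, 12 of 13 at D2 and 7 of 10 at D7 against D0, and 3 of 4 at D7 against D2. Abca1 at D2 against D0 was the only call kept in every fit that also left libraries out, besides Abcg1 at D7 against D2 wherever it was tested. The cause of these shifts was not tested. The fits hold time and genotype as terms, which pairs Cre with Vec by time. Depth limits Abcg1 (2 to 39 reads before D7) and Idi1 (18 to 120 reads) most.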
